A study of Mus musculus with 24 samples.

Results

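The genes Tekt4, Tmem52, Smim3, Pla2g3 and Fmo2 were followed in the prefrontal cortex (PFC) of mice after dexamethasone (DEX), a synthetic agonist of the glucocorticoid receptor (GR). They are the 5 of 14074 genes in the table, of which 12142 are protein-coding, chosen by their strong rise in normalized counts after DEX and by the lack of a settled role in cortex. Because they were selected on that rise, it is described below without a test. The 24 libraries came from 24 male C57BL/6 mice aged 10-12 weeks, in 6 groups of 4. Control mice, and mice sorted by behaviour after 30 days of social defeat into PS (passive coping) and AS (active coping) phenotypes, each received saline or 2 mg/kg DEX and were sampled 6 h later. Injections were given 24 h after the last stress session, and controls had been housed singly for 5 days without defeat. Each library held poly(A) RNA of a tissue block spanning secondary motor, anterior cingulate, orbital, prelimbic and infralimbic cortex, so that fewer cells of a type and less RNA per cell cannot be told apart.

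The GR is a hormone-activated transcription factor. With ligand it enters the nucleus and binds glucocorticoid response elements as a dimer, or half-sites as a monomer, and induces genes such as Fkbp5, a co-chaperone that lowers the receptor's affinity for hormone, and Tsc22d3, which encodes GILZ. The 5 genes have unrelated products. Tekt4 encodes a tektin, a filament protein of the microtubules of cilia and sperm flagella. Tmem52 and Smim3 encode a transmembrane protein and a small integral membrane protein whose functions are little characterised. Pla2g3 encodes a secreted phospholipase of the A2 class, which releases a fatty acid and a lysophospholipid from membrane phospholipids. Fmo2 encodes a flavin-containing monooxygenase, an enzyme that oxidises nitrogen and sulfur atoms of foreign compounds and is best known from lung.

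Tekt4 (ENSMUSG00000024175.2) lies on the plus strand of mm10 chromosome 17 at 25454615-25476602, Tmem52 (ENSMUSG00000023153.9) on the plus strand of chromosome 4 at 155469114-155470858, and Pla2g3 (ENSMUSG00000034579.17) on the plus strand of chromosome 11 at 3488284-3499350. Fmo2 (ENSMUSG00000040170.13) lies on the minus strand of chromosome 1 at 162874317-162898726. Each of the 5 genes, Smim3 (ENSMUSG00000038059.7) included, lies on a chromosome of its own. RefSeq promoters (GRCm38.p6, 250 bases before to 50 after a start) were held for 2 of the 5 genes, Tekt4 with 1 start and Fmo2 with 2, and are shown because the GR acts at DNA and these genes moved with its ligand. They are written 5′ to 3′ on the gene's strand, and capitals mark the GR half-site AGAACA on either strand.

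Tekt4, chr17:25471340-25471639, plus strand: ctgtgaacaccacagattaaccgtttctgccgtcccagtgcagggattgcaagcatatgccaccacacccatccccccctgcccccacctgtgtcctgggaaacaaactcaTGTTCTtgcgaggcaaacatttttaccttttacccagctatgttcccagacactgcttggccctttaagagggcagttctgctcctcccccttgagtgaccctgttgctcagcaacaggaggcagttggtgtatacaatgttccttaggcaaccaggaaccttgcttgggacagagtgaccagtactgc

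Fmo2 first start, chr1:162898709-162899008, minus strand: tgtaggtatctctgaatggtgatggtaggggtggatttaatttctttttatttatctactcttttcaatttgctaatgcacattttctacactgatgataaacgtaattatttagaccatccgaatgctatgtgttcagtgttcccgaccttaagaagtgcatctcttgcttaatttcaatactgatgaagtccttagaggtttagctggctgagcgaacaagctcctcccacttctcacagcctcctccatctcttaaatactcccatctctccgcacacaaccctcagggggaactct

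Fmo2 second start, chr1:162898444-162898743, minus strand: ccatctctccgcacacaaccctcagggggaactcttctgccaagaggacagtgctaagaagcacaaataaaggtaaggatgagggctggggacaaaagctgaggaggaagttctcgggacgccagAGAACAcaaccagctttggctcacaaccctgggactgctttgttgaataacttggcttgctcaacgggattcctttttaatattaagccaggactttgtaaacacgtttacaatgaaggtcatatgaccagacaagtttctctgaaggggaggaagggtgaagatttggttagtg

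The half-site stood once in the Tekt4 promoter, on the minus strand with its first base in the printed direction at -139 from the start. It stood once in the promoter of the second Fmo2 start, at -125, and was not found in that of the first. Of 32851 RefSeq promoters of the same length, 19.0% hold it on either strand. ACANNNTGT, the spacing of a full response element reduced to its most constant letters, was not found in these 3 windows and is held by 6.85% of all promoters. These matches describe letters and were not tied to any binding. The Tekt4 promoter shown begins inside the gene span given above, since that span also holds a start further upstream.

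The recovered depth ran from 21121869 to 59439645 reads per library, and the group medians from 22869703 (controls, saline) to 37876626 (AS, DEX). Fkbp5, Tsc22d3 and Sgk1 were higher in each DEX library than in each saline library of the same phenotype, which matches the treatment labels of all 24 libraries. Markers of pyramidal neurons, GABAergic neurons, astrocytes, oligodendrocytes, microglia, endothelial and mural cells were above 0 in every library, 10 of 10 genes per list. Of 8 ependymal markers 3 were in the table and of 7 choroid plexus markers 1 was, Aqp1. Levels are given as normalized counts, the reads of a gene divided by the size factor of its library.

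**Figure D1:**
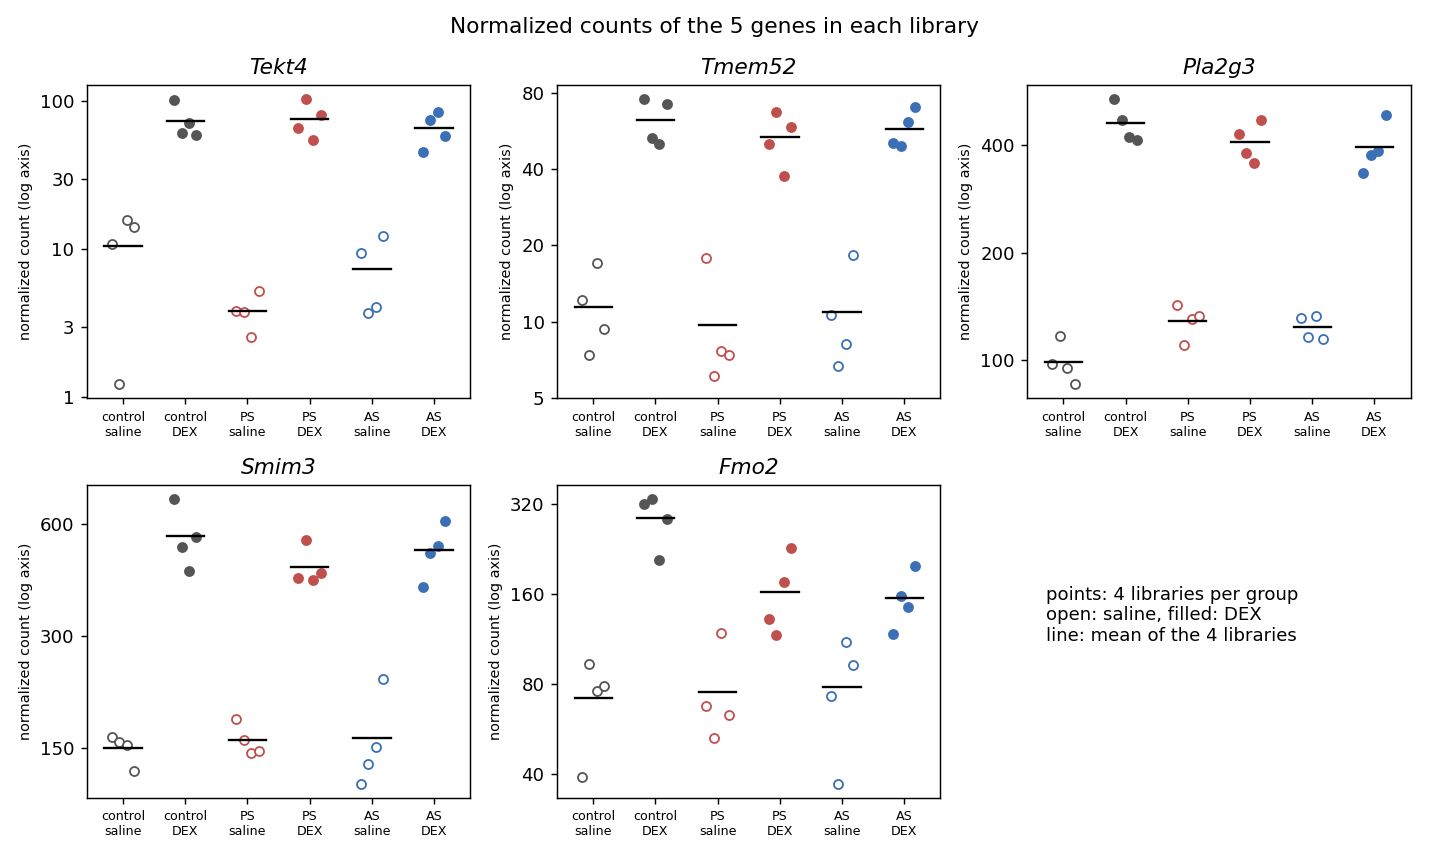
Normalized counts (log axes) of the 5 genes in each of 24 libraries, by group; open points are saline, filled points DEX, and lines are means of 4 libraries. Filled points lie above all open points in 4 panels. In the Fmo2 panel 1 saline-treated PS library at 119 lies above a DEX-treated PS library at 116 and a DEX-treated AS library at 118.

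Tekt4 was near the limit of detection with saline and clearly present with DEX. In saline-treated controls the 4 libraries held 10.8, 1.23, 15.8 and 14.1 normalized counts, in PS mice 3.82, 3.74, 2.56 and 5.26, and in AS mice 9.45, 3.73, 4.08 and 12.2. These values rest on 1 to 14 reads per library. After DEX the controls held 102, 61.4, 71.5 and 59.3, PS mice 66.1, 103, 54.6 and 80.5, and AS mice 45.2, 74.8, 84.2 and 58.7. The lowest of the 12 DEX libraries (45.2) was above the highest of the 12 saline libraries (15.8). The group means stood 7.01-fold apart in controls, 19.8-fold in PS and 8.91-fold in AS mice. On the log2(normalized count + 1) scale used for all differences below, DEX minus saline was 3.01 in controls, 3.98 in PS and 3.10 in AS mice, with an SE of 0.45 each, at ranks 5, 2 and 2 of 14060 genes. With a pseudocount of 8 in place of 1 these differences were 2.2, 2.80 and 2.27, because a gene with so few reads at baseline depends on that constant. Without control mouse 107, which held 1 read, the difference in controls was 2.34.

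Tmem52 too had few reads with saline, and its DEX differences were nearly equal in the 3 phenotypes. Saline-treated controls held 12.1, 7.38, 17.0 and 9.39 normalized counts, PS mice 17.8, 6.08, 7.67 and 7.36, and AS mice 10.6, 6.71, 8.17 and 18.4, from 6 to 21 reads. After DEX the values were 75.7, 53.0, 50.1 and 72.0 in controls, 50.2, 67.2, 37.6 and 58.8 in PS, and 50.5, 49.3, 61.1 and 70.2 in AS mice. All 12 DEX libraries were above all 12 saline libraries, the closest pair being 37.6 and 18.4. The means stood 5.47-fold apart in controls, 5.49-fold in PS and 5.27-fold in AS mice. DEX minus saline was 2.39, 2.43 and 2.37 (SE 0.31 each), and 1.87, 1.81 and 1.82 with the pseudocount of 8.

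Smim3, the other membrane protein, was measured with at least 102 reads in each library. With saline the controls held 161, 156, 153 and 130.3 normalized counts, PS mice 179.7, 158, 146 and 147, and AS mice 120.5, 136, 151 and 231. With DEX the controls held 703, 523, 448 and 555, PS mice 431, 545, 425 and 444, and AS mice 407, 503, 524 and 611. The highest saline library, AS mouse 44, stayed below the lowest DEX library. The means stood 3.72-fold apart in controls, 2.92-fold in PS and 3.21-fold in AS mice. DEX minus saline was 1.87, 1.54 and 1.71 (SE 0.16 each).

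Pla2g3 had a coefficient of variation of 7.74% to 16.2% within groups. Saline-treated controls held 97.2, 117, 95.04 and 85.7 normalized counts, PS mice 143, 110.4, 130.5 and 132, and AS mice 131, 116, 133 and 115. After DEX the controls held 539, 472, 423 and 414, PS mice 429.96, 382, 357 and 470.1, and AS mice 335, 375, 386 and 486. With saline the control group was the lowest of the 3 and after DEX the highest, with overlapping libraries in both cases. The means stood 4.68-fold apart in controls, 3.18-fold in PS and 3.20-fold in AS mice. DEX minus saline was 2.22 in controls and 1.66 in both PS and AS mice (SE 0.12 each).

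Fmo2 showed the widest gap between phenotypes after DEX. Saline-treated controls held 39.1, 93.4, 75.8 and 78.7 normalized counts, PS mice 67.5, 52.9, 119 and 63.1, and AS mice 73.2, 37.3, 111 and 92.7. After DEX the controls held 319.9, 332, 207 and 286, PS mice 132, 116, 175 and 227, and AS mice 118, 157, 145 and 198. DEX and saline libraries did not overlap in controls and in AS mice, where the nearest were 118 and 111, and overlapped in PS mice. Means stood 3.99-fold apart in controls, 2.15-fold in PS and 1.97-fold in AS mice. DEX minus saline was 2.03, 1.12 and 1.05 (SE 0.30 each), and its rank among 14060 genes was 11 in controls, 39 in PS and 46 in AS mice.

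**Figure D2:**
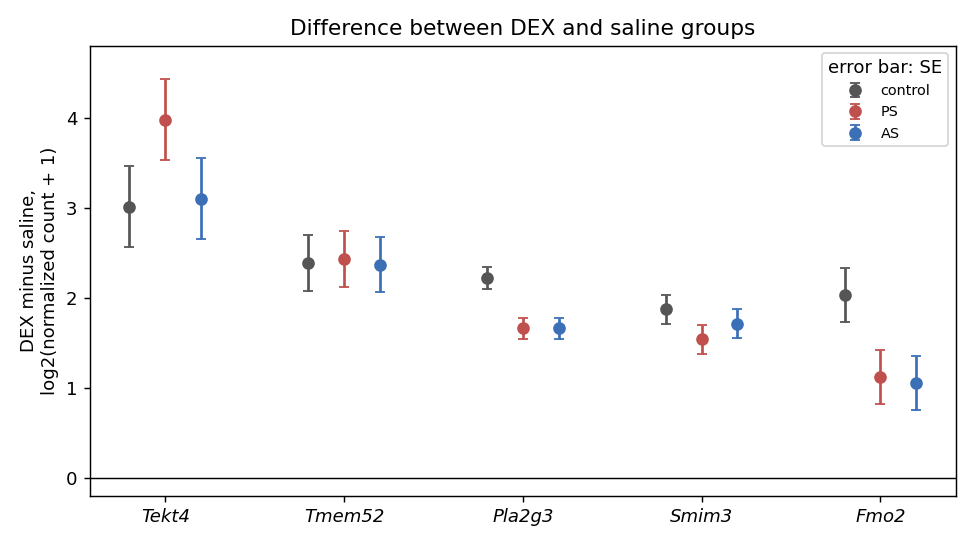
DEX minus saline for each gene in control, PS and AS mice, as the difference of group means of log2(normalized count + 1) with its SE, 4 libraries per group. Differences run from 1.05 (Fmo2 in AS) to 3.98 (Tekt4 in PS), and those of Pla2g3, Smim3 and Fmo2 are highest in controls.

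In all, 14 of the 15 pairs of a gene and a phenotype had every DEX library above every saline library, the exception being Fmo2 in PS mice. Over all genes tested, that separation was met by 5.81% in controls, 5.55% in PS and 4.0% in AS mice, and by 1.23% in all 3 phenotypes. Apart from Fmo2, the genes separated the 12 DEX from the 12 saline libraries, against 0.896% of genes tested. These shares stand beside counts that the choice of genes fixed. For reference, limma at a Benjamini-Hochberg adjusted p under 0.1 called 4.05% of genes higher and 2.46% lower after DEX in controls, 2.75% and 2.65% in PS, and 3.83% and 4.97% in AS mice.

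Per kilobase of exon, the order of the 5 genes changed with treatment. With saline the means of the 3 groups were 1.93 to 5.25 normalized counts per kilobase for Tekt4, 8.42 to 9.92 for Tmem52, 12.8 to 14.0 for Fmo2, 22.0 to 23.4 for Smim3 and 21.01 to 27.5 for Pla2g3. With DEX they were 27.6 to 51.1 for Fmo2, 32.9 to 38.1 for Tekt4, 46.2 to 54.2 for Tmem52, 67.5 to 81.6 for Smim3 and 84.2 to 98.4 for Pla2g3. Tekt4 thus left the lowest 0.263% of tested genes or below, per kilobase, for a place 11.5% to 14.3% from the bottom. Pla2g3, the most abundant after DEX, reached 33.2% to 36.7%. After DEX all 5 genes remained below the median tested gene per kilobase of exon.

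The genes were not chosen by a comparison between phenotypes, and these comparisons were tested with limma across all 14060 genes. All of them, those with saline included, share libraries with the rise that chose the genes. They are not independent of the choice, since a high DEX value or a low saline value in any group favoured it. Of 45 comparisons between phenotypes, 9 for each gene, 0 passed an adjusted p under 0.1 in limma, 8 had an unadjusted p under 0.05, and edgeR called 0 and DESeq2 called 1. All 8 were of Pla2g3 or Fmo2 against controls. Of all 14060 genes, 1852 in PS and 1548 in AS mice had an unadjusted limma p under 0.05 against controls with saline. With DEX these counts were 1971 and 1892, and for the DEX responses 1406 and 1906. With saline, limma called 1.51% of all genes between PS and control, 0.185% between AS and control and 0.0% between AS and PS. With DEX it called 0.206%, 0.868% and 0.0%. The DEX response differed from that of controls for 0.0% of genes in PS and 0.349% in AS mice, and between AS and PS mice for 0.0%. A result of 0 of 5 therefore does not set these genes apart from the table. Each library came from 1 mouse, so p-values measure the spread between mice as sampled.

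**Figure D3:**
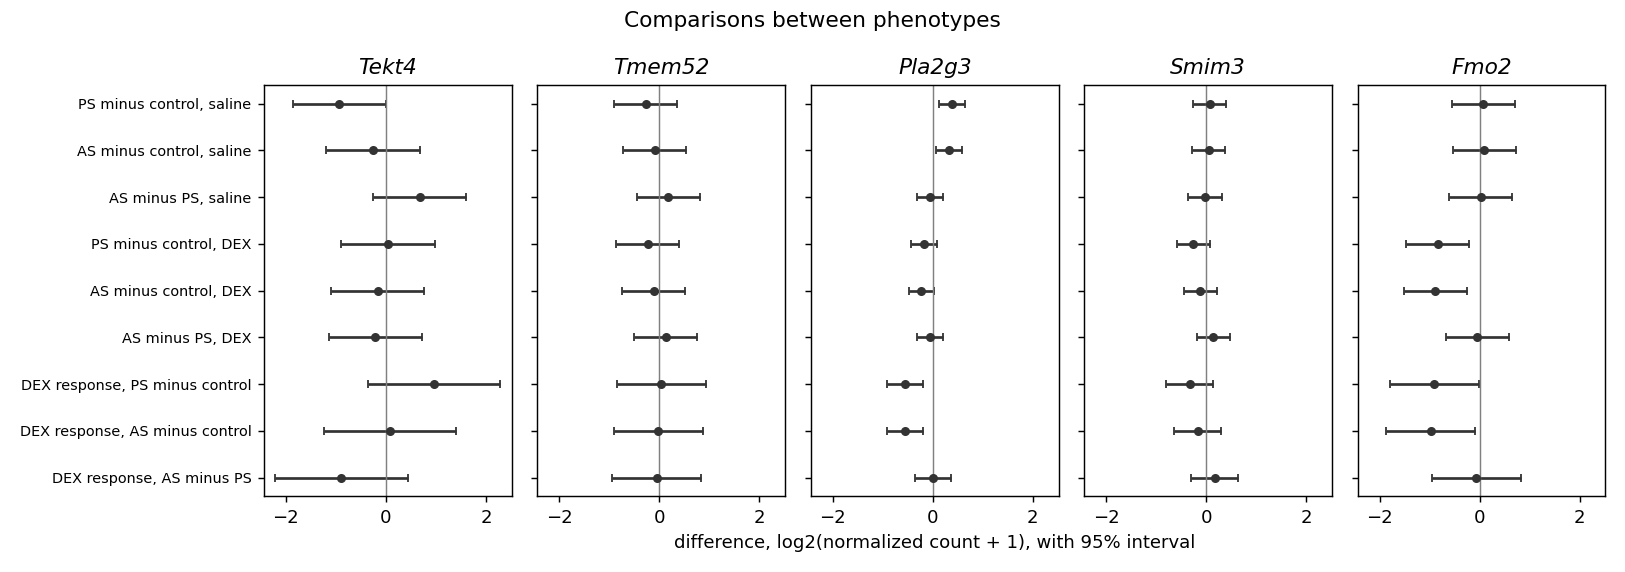
Differences between phenotypes for each gene, with saline, with DEX and in the DEX response, on the log2(normalized count + 1) scale; points are limma estimates and bars their 95% intervals, 4 libraries per group. Against controls, intervals of Pla2g3 with saline, of Fmo2 with DEX and of both genes in the DEX response lie away from 0 in PS and AS mice. No adjusted p is under 0.1.

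For Pla2g3, baseline estimates in both stressed phenotypes lay above controls and did not pass the adjusted threshold. With saline the mean was 98.7 ± 13.1 (SD, n = 4) in controls, 129 ± 13.5 in PS and 124 ± 9.57 in AS mice. The PS minus control difference was 0.39 (95% interval 0.13 to 0.64, limma adjusted p = 0.152), and 15 of 16 pairs of a PS and a control library had the PS library higher. The AS minus control difference was 0.33 (0.07 to 0.58, limma adjusted p = 0.332), with 14 of 16 pairs higher. With DEX the signs were opposite, at -0.17 in PS (-0.43 to 0.08) and -0.23 in AS mice (-0.48 to 0.02). The DEX response minus that of controls was -0.56 in PS and in AS mice, with an interval of -0.92 to -0.20 for each and limma adjusted p values of 0.369 and 0.159. With library size as a covariate the PS minus control difference with saline was 0.47 and passed (limma adjusted p = 0.0773). The AS minus control difference in the DEX response passed without any 1 of 3 libraries, DEX-treated control mouse 112, saline-treated AS mouse 44 or DEX-treated AS mouse 72 (limma adjusted p = 0.0888, 0.085 and 0.098). These fits called 678, 690 and 122 of 14060 genes, against 49 with all libraries, while the Pla2g3 difference was -0.60, -0.59 and -0.66. Over the 24 libraries left out in turn, its limma adjusted p ran from 0.085 to 0.382.

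Fmo2 did not separate by phenotype with saline, where the means were 71.8 ± 23.1 in controls, 75.6 ± 29.5 in PS and 78.5 ± 31.5 in AS mice (SD, n = 4). With DEX they were 286 ± 56.2, 163 ± 49.7 and 155 ± 33.3. Each DEX-treated AS library was below each DEX-treated control library, a separation met by 4.03% of the genes tested. Of 16 pairs of a PS and a control library after DEX, 1 had the PS library higher. AS minus control with DEX was -0.89 (-1.51 to -0.26, limma adjusted p = 0.201) and PS minus control -0.84 (-1.47 to -0.21, limma adjusted p = 0.244). The DEX response minus that of controls was -0.91 in PS (-1.80 to -0.02, limma adjusted p = 0.484) and -0.98 in AS mice (-1.87 to -0.09, limma adjusted p = 0.316). DESeq2 on the recovered reads called the AS minus control difference with DEX (adjusted p = 0.0633), as did limma on those 2 groups alone (adjusted p = 0.0723). These fits called 414 and 135 of 14060 genes, and limma with log2 library size as a covariate called 0. Over the 9 other settings of limma, edgeR and DESeq2 the Fmo2 difference ran from -0.90 to -0.62, with adjusted p from 0.0633 to 0.762.

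Vascular marker levels are given beside these Fmo2 values, which did not pass in limma. With DEX, 10 endothelial markers summed to 7198-10738 normalized counts in controls, 3807-8709 in PS and 4316-6607 in AS mice, and none of them was at 0. The 10 mural markers summed to 5986-9173, 3520-7117 and 3978-4977, and the 8 leptomeningeal markers tested to 4864-6859, 3011-6089 and 3693-6302. Between AS and control mice with DEX, limma called 4 of 10 endothelial and 3 of 10 mural markers lower and 0 higher, with median differences of -0.82 and -0.63, and 0 of 8 leptomeningeal markers in either direction, median -0.42. For this comparison limma called 0.868% of all genes in either direction, and 0 genes with log2 library size as a covariate. Between PS and control mice with DEX it called 0 of 10, 0 of 10 and 0 of 8 in either direction, with medians of -0.56, -0.54 and -0.62. Over libraries, after group means were removed, the Pearson r of Fmo2 with the summed markers was 0.555 for endothelial, 0.671 for mural and 0.596 for leptomeningeal lists (Spearman rho 0.529, 0.577 and 0.624, n = 24 libraries), and 0.477, 0.625 and 0.525 without the 2 libraries farthest out in the marker sum. For Pla2g3 these r were 0.414, 0.576 and 0.586, while for Tekt4, Tmem52 and Smim3 they lay between -0.23 and 0.199. The part of these marker levels in the Fmo2 and Pla2g3 values was not tested.

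**Figure D4:**
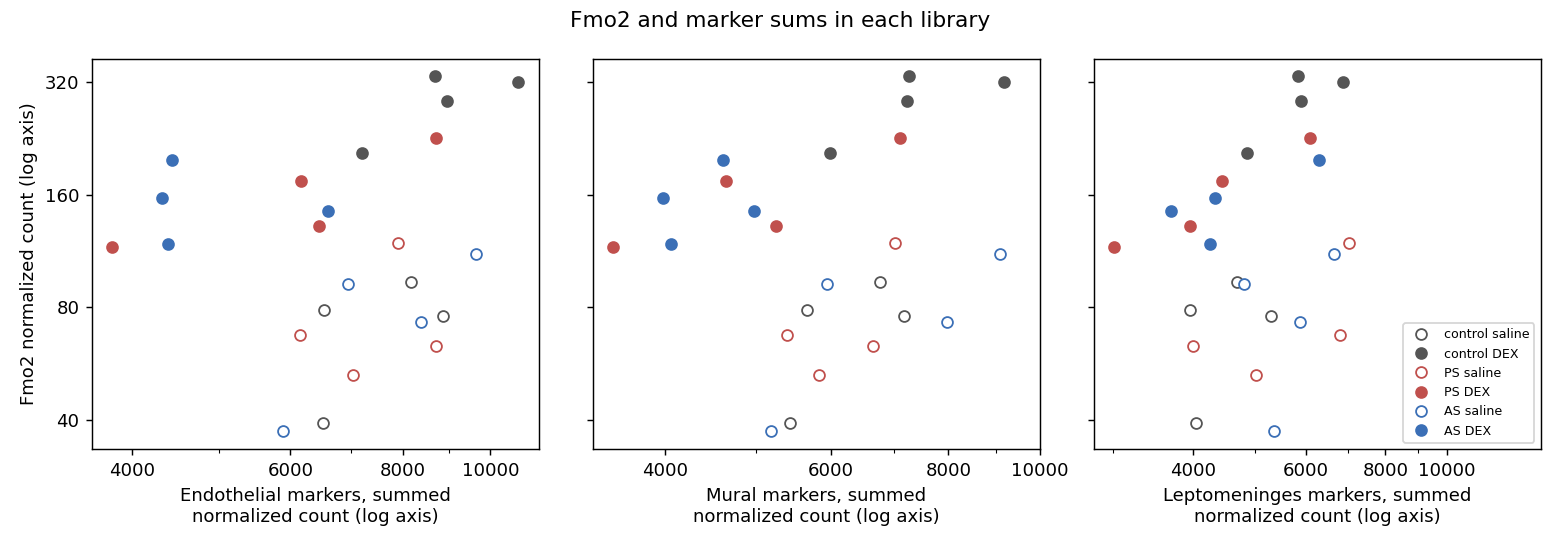
Fmo2 normalized count against the summed normalized counts of endothelial, mural and leptomeningeal markers in each of 24 libraries (log axes); open points are saline and filled points DEX. DEX-treated controls lie at the upper right, with endothelial sums of 7198-10738 and Fmo2 at 207-332, and DEX-treated AS libraries below them, and to their left in the endothelial and mural panels.

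For Tekt4, the call between saline-treated PS and control mice turned on 1 library. The means were 3.84 ± 1.10 (SD, n = 4) in PS, 7.38 ± 4.17 in AS and 10.5 ± 6.52 in controls, and the groups overlapped through control mouse 107 at 1.23. The PS minus control difference was -0.93 (-1.86 to 0.01, limma adjusted p = 0.382), and -1.60 without control mouse 107 (limma adjusted p = 0.0257). AS minus PS with saline was 0.68 (limma adjusted p = 0.934). With DEX the means were 73.5 ± 19.6 in controls, 76.2 ± 21.02 in PS and 65.7 ± 17.2 in AS mice. The DEX response of PS minus that of control mice was 0.97, with an interval of -0.35 to 2.29, and that of AS minus PS mice was -0.89 (-2.21 to 0.44), intervals that each span over 2 log2 units at 1 to 14 reads at baseline.

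Tmem52 and Smim3 had overlapping levels across phenotypes with saline and with DEX. For Tmem52 with saline the means were 11.5 ± 4.16, 9.74 ± 5.44 and 10.97 ± 5.19 in control, PS and AS mice (SD, n = 4), and with DEX 62.7 ± 13.1, 53.5 ± 12.6 and 57.8 ± 9.85. PS minus control was -0.27 (-0.90 to 0.36) with saline and -0.23 (-0.86 to 0.40) with DEX. For Smim3 the means with saline were 149.96 ± 13.5, 158 ± 15.6 and 159.5 ± 49.2, and with DEX 557 ± 107, 461 ± 56.2 and 512 ± 83.8. PS minus control with DEX was -0.26 (-0.59 to 0.07, limma adjusted p = 0.495), and the DEX response of PS minus that of control mice was -0.33 (-0.80 to 0.14, limma adjusted p = 0.66). Between AS and PS mice, differences over the 5 genes ran from -0.06 to 0.68 with saline and from -0.21 to 0.14 with DEX. Their 95% intervals reached from -0.61 to 1.61 and from -1.14 to 0.76, which leaves room for differences that these libraries could not show.

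The order of the 6 groups by mean had the 3 saline groups below the 3 DEX groups for all 5 genes. Among DEX groups, controls were highest for Tmem52, Smim3, Pla2g3 and Fmo2, and PS mice for Tekt4. Neighbouring groups within a treatment overlapped in their libraries in each case, the separation of AS from controls for Fmo2 with DEX being between groups that were not neighbours.

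The 5 genes did not vary alike from mouse to mouse within groups. After group means were removed, Smim3 and Tmem52 had a Pearson r of 0.647 over 24 libraries (Spearman rho 0.597, and r 0.504 without the 2 libraries farthest out for Tmem52), and Tekt4 and Tmem52 of 0.569 (rho 0.598, r 0.485 likewise for Tekt4). Pla2g3 and Fmo2 had an r of 0.448 (rho 0.443, r 0.357 likewise for Pla2g3). Tekt4 had an r of -0.218 with Pla2g3 (rho -0.0409, r 0.0558 likewise for Tekt4) and -0.121 with Fmo2 (rho -0.0739, r 0.0163 likewise for Tekt4). With Fkbp5 the r was 0.736 for Smim3, 0.669 for Tmem52, 0.565 for Fmo2, 0.406 for Pla2g3 and 0.302 for Tekt4. These values describe 24 libraries that share size factors and group centring, and they were not tested. Among DEX-treated mice, control mouse 101 held the highest value of 4 of the 5 genes in its group and AS mouse 72 of 4, while PS mouse 52 and AS mouse 38 each held the lowest of 4.

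**Figure D5:**
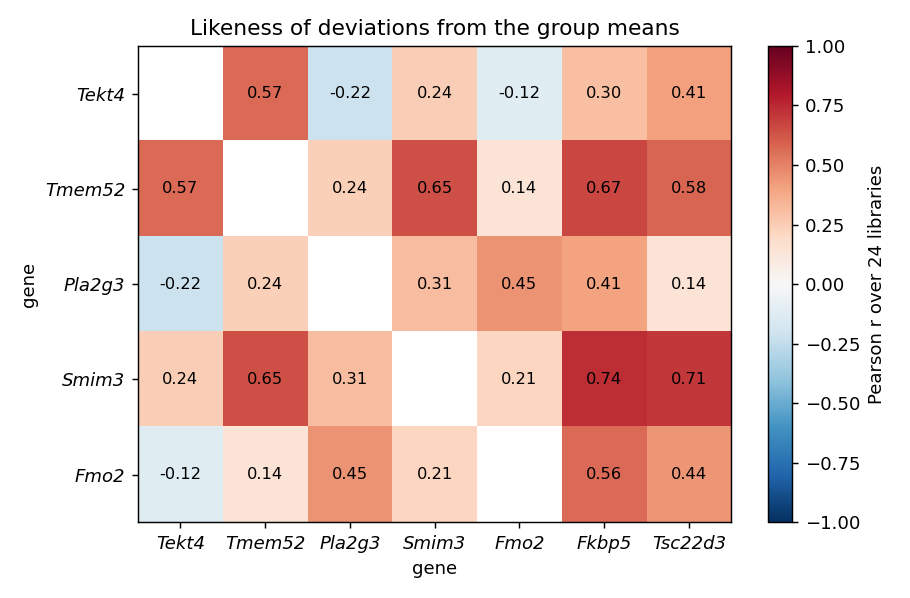
Pearson r between genes over 24 libraries after the mean of each group was removed from log2(normalized count + 1), for the 5 genes and for Fkbp5 and Tsc22d3. Smim3 and Tmem52 are the closest pair of the 5 (0.65). Tekt4 has a negative r with Pla2g3 and Fmo2, which was 0.0558 and 0.0163 without the 2 libraries farthest out for Tekt4.

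Over all 24 libraries, without removing group means, the genes most like each of the 5 had positive DEX differences of their own in all 3 phenotypes. Because the 5 were selected on their rise after DEX, an r over saline and DEX libraries favours other genes that rise. Those positive differences therefore follow from the choice of genes and are not a separate result. Fkbp5 was the most like Pla2g3 and Smim3, with an r of 0.983 for each, followed by Alox12b (0.978), a lipoxygenase, and Cmtm3 (0.978) for Pla2g3, and by Cmtm3 (0.979) and Tsc22d3 (0.977) for Smim3. Tmem52 was most like Rin2 (0.972), a guanine nucleotide exchange factor for Rab5 proteins, Smim3 and Pkp2 (both 0.967), the last a desmosomal plakophilin. Tekt4 was most like Tmem52 (0.948), Plin4 (0.946), a lipid droplet coat protein, and Tsc22d3 (0.944). Fmo2 was most like Xdh (0.911), xanthine dehydrogenase, Sult1a1 (0.907), a sulfotransferase, and Lcn2 (0.895), a siderophore-binding lipocalin. With group means removed, the closest genes were mostly others. They were Eln (0.815), which encodes elastin, Slco4a1 (0.786) and Tbk1 (0.782) for Fmo2, Car4 (0.846), a carbonic anhydrase, Kcnh4 (0.799) and Tcim (0.782) for Pla2g3, and Rin2 (0.761), Cdc26 (0.719) and Rpl9-ps6 (0.712) for Tmem52. They were 1110032A03Rik (0.881), Acsl3 (0.815) and mt-Rnr2 (0.797) for Smim3, and Tesk2 (0.792), Cryz (0.752) and Triap1 (0.751) for Tekt4.

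Among genes beside the 5 on the chromosome, the highest DEX minus saline difference in any phenotype was 0.39. Limma at an adjusted p under 0.1 called 2 of 33 neighbour comparisons, 11 genes in 3 phenotypes. Over all 14060 genes it called 915 in control, 759 in PS and 1237 in AS mice. The count of 2 therefore does not set these neighbours apart from the table. Sox8, the nearest gene in the table after Tekt4 at a distance of 89290 bases, was higher in PS mice by 0.39 (SE 0.09, limma adjusted p = 0.00703) against 0.10 in controls and 0.08 in AS mice, without a test of the difference between phenotypes. Fmo1, a flavin-containing monooxygenase of the same family 7707 bases from Fmo2 on the same strand, was lower in AS mice by an estimate of -0.58 (SE 0.16, limma adjusted p = 0.0365), against 0.30 in controls and -0.20 in PS mice. Its means were 316 ± 56.7 with saline and 211 ± 31.8 with DEX in AS mice (SD, n = 4). Cfap74, a gene of ciliary axonemes that ends 2291 bases before Tmem52 on the same strand, had differences of -0.03, -0.13 and -0.16 in control, PS and AS mice, none past the threshold. Pla2g3 overlaps Inpp5j, an inositol polyphosphate phosphatase on the opposite strand, over 4976 bases, of which 401 are exonic in both genes. Group means of Inpp5j ran from 1626 to 2423 normalized counts, and its DEX differences were -0.11, 0.28 and 0.09 (SE 0.24 each), none past the threshold. The libraries were strand-specific, but the strand setting of the counting is not given in the sources used here, so reads in the shared exons cannot be assigned with certainty.

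Other genes of the families and pathways of the 5 are given by their counts, to be read beside the 2.46% to 4.97% of all genes called in one direction after DEX. Of 19 motile cilium genes 6 were tested, and limma called 0 in each phenotype, with median differences of 0.07, -0.14 and -0.16. Drc1 and Drc3, subunits of the dynein regulatory complex with the highest counts of the list, had differences of 0.03 and 0.19 in controls, neither past the threshold. Of the other tektins, Tekt5 (-0.37, 0.45 and 0.79 in control, PS and AS mice, SE 0.36) and Tekt2 (0.47, 0.30 and -0.18, SE 0.30) did not pass. Of 3 ependymal markers tested 0 were called in each phenotype, and Foxj1, the master regulator of motile cilia, was not in the table.

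Of 15 genes of phospholipase A2 and lysophospholipid turnover tested, Ptgs2 (cyclooxygenase-2) rose by 0.63 in controls (limma adjusted p = 0.0114), and Lpcat2, a lysophosphatidylcholine acyltransferase, fell by estimates of -0.49, -0.58 and -0.55 in control, PS and AS mice (limma adjusted p = 0.0112, 0.00249 and 0.00377). None of the 7 other Pla2g genes was called after DEX in any phenotype, including Pla2g7 (-0.03, -0.23 and -0.16) and Pla2g15 (-0.09, -0.01 and -0.13), and list medians were -0.03, -0.01 and -0.09. Of 12 genes of flavin monooxygenases and other xenobiotic oxidation tested, limma called 4 higher (against 4.05% of all genes) and 0 lower in controls, and 1 higher and 1 lower in PS and in AS mice, with medians of 0.26, 0.07 and -0.02. Those higher in controls were Cyp2d22 (0.42), Cyp2j9 (0.51), Cyp4f15 (0.58) and Cyp1b1 (0.85), all cytochrome P450 enzymes, while Gstm1 and Aldh2, with the highest counts of the list, had differences of 0.17 and 0.16 and did not pass. Of 16 other Smim genes 1 was called, Smim10l1 in AS mice (0.20, limma adjusted p = 0.0781), and Smim13, with the highest counts, had differences of -0.16, -0.04 and 0.11, none past the threshold.

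The established GR targets gave the scale against which the 5 genes can be read. Of 22 listed, limma called 18 higher in controls, 20 in PS and 17 in AS mice and 0 lower, with medians of 0.67, 0.78 and 0.67, against medians of -0.01, 0.00 and 0.00 over all genes tested. The list was drawn up with results of these data known. Only Plin4 among them (3.65, 4.59 and 4.34) had differences above those of Tekt4, and Fkbp5 changed by 2.26, 2.00 and 1.91. Fam107a and Klf9, with the highest counts of the list, changed by 0.66, 0.41 and 0.46 and by 0.42, 0.55 and 0.66. Nr3c1, which encodes the GR itself, had differences of -0.50, -0.38 and -0.28, with limma adjusted p values of 0.00268, 0.0292 and 0.104.

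Markers of other cell types after DEX, in control, PS and AS mice, gave list medians of 0.15, -0.09 and -0.09 for astrocytes, -0.31, 0.12 and 0.38 for oligodendrocytes, and 0.09, -0.10 and -0.22 for microglia. Medians were -0.06, 0.03 and 0.05 for pyramidal neurons, -0.06, 0.09 and 0.02 for GABAergic neurons, -0.05, -0.20 and -0.32 for ependymal cells, and 0.36, -0.80 and -0.19 for blood. For endothelial and mural lists the DEX minus saline medians were 0.26, -0.33 and -0.67 and 0.29, -0.31 and -0.71, with 5 of 10 markers of each called lower in AS mice, and for leptomeninges 0.36, -0.56 and -0.44. Aqp1, the single choroid plexus marker tested, ranged from 9.21 to 199.9 normalized counts over libraries and its DEX differences were -0.45, 0.19 and -0.93, none past the threshold.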

How the data were processed

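The authors trimmed reads with fastp 0.20.1, aligned them to mm10 with HISAT2 2.2.1, counted them per gene of GENCODE vM22 (featureCounts) and divided counts by DESeq2 size factors. The deposited signal values are these normalized counts, and whole reads were recovered for 100% of them within a tolerance of 0.01 read. The p-values that the authors deposited served only to define the 14060 genes tested, and their fold changes and p-values were not used otherwise. The study states a minimum of 10 aligned reads in each sample. Tekt4 and Tmem52 are among the 14060 genes but reached 10 reads in only 15 and 17 of the 24 libraries. The 5 genes and all lists were chosen with earlier results of these data known. Lists were GR targets, motile cilium, xenobiotic oxidation, phospholipase A2, symbol families and cell type markers.

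Differences were fitted with limma 3.58.1 (R 4.3.3, trend) on log2(normalized count + 1), one mean per group, 24 libraries in one model, with Benjamini-Hochberg adjustment over all genes at 0.1. Differences of DEX responses are interactions. Genes named were the 5, Fkbp5, Tsc22d3, Sgk1 and Nr3c1, the 3 most like each gene by Pearson r with and without group means, chromosomal neighbours, relatives, and the 2 most abundant genes of lists; further list genes were named because they passed the test or for context, after their values were seen. Exon lengths and neighbours came from GENCODE vM21 (GRCm38). Counts of 14060 genes were simulated, with known folds given in a single group to a small set of genes above a minimum mean of reads. Limma recovered 92% of 2-fold changes for PS minus control with saline and 80% for the AS interaction. A baseline as low as that of Tekt4 was not simulated apart, so these shares do not exclude 2-fold differences in the 5 genes.

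Alternatives were a pseudocount of 8, all genes, a mean of at least 50, at least 10 reads in every library, quantile normalization, edgeR 4.0.16, DESeq2 1.42.0, log2 library size as a covariate, a model of the compared groups alone, and each of 24 libraries left out. Mouse numbers do not recur between groups.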

Additional observations from a re-analysis of the deposited data

Results flagged for a closer look

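Among the 30 sets of 4 libraries (5 genes in 6 groups), 2 held a library far from the other 3 by Dixon's criterion, where chance gives about 1 in 20. Tmem52 in saline-treated PS mice had its highest library, mouse 2, at 17.8 normalized counts against 7.67 for the next, a gap of 0.865 of the range. Smim3 in DEX-treated PS mice had its highest library, mouse 34, at 545 against 444, a gap of 0.841 of the range.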

How the results depend on the processing

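Of the 45 comparisons between phenotypes, none passed in limma on all libraries, and 7 calls appeared over 33 alternatives. The number of the 5 genes called was 1 for PS minus control with saline under library size as a covariate (Pla2g3), and 1 for AS minus control with DEX under DESeq2 and under a model of only the groups compared (Fmo2 in both). With libraries left out it ran from 0 to 1 for PS minus control with saline (Tekt4, without control mouse 107) and from 0 to 1 for the difference between the DEX responses of AS and control mice (Pla2g3, without DEX-treated control mouse 112, saline-treated AS mouse 44 or DEX-treated AS mouse 72). Over all 14060 genes, these fits called 134 with library size as a covariate, 414 with DESeq2 and 135 with only the groups compared. Without control mouse 107 the count was 95, and without mouse 112, 44 or 72 it was 678, 690 and 122. The causes were not tested. The sign of 21 of the 45 differences changed under at least 1 alternative, and the largest of these was 0.25 in absolute size. The count of 14 non-overlapping pairs of a gene and a phenotype was 15 with quantile normalization and 14 with TMM-scaled values, and ran from 14 to 15 with libraries left out.

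DESeq2 called more of all genes than limma, with 431 against 213 for PS minus control and 99 against 26 for AS minus control with saline, 221 against 29 and 414 against 122 with DEX, and 23 against 0 and 441 against 49 for the DEX responses of PS and AS mice against controls. Between AS and PS mice it called 11 with saline, 4 with DEX and 0 in the DEX response, where limma called 0 in each at 673, 579 and 346 genes with an unadjusted p under 0.05. Tekt4 and Tmem52 were not tested under the minimum mean of 50 and the minimum of 10 reads. Their means over all 24 libraries were below 50, and some of their saline libraries held fewer than 10 reads. No paired analysis was possible because mouse numbers do not recur between groups.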
